A study of Mus musculus with 4 samples.

Results

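The 10 genes described here belong to the bone morphogenetic protein (BMP) pathway and were measured in the atrioventricular canal of Tbx3 mutant and control mouse hearts: the ligands Bmp2 and Bmp4, and Msx1, Msx2, Id1, Id2, Id3, Bambi, Smad6 and Smad7, which BMP signalling is known to switch on. They were chosen by name, as every non-control probe whose gene name is one of these 10. The array carried 14 such probes on 59 spots, and all 10 genes passed the filter on dim probes and were among the 19091 genes tested. Each of the 14 probes was well above background in all 4 control and all 4 mutant pools, and none was saturated.

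BMP ligands bind pairs of type I and type II serine-threonine kinase receptors, which phosphorylate Smad1, Smad5 and Smad9. These join Smad4, enter the nucleus and bind the regulatory DNA of target genes. In the embryonic heart, Bmp2 is made by the myocardium of the atrioventricular canal, where it is known for inducing Tbx2 and for driving the overlying endocardium to form cushion mesenchyme. Several targets feed back: Smad6 and Smad7 block the receptors and the signalling Smads, and Bambi is a membrane pseudoreceptor without a kinase domain. Id proteins bind basic helix-loop-helix factors and keep them from DNA, and Msx1 and Msx2 are homeobox transcription factors of the canal and its cushions. Tbx3 is a T-box repressor that keeps canal and conduction-system myocardium from taking on a chamber programme.

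The canal tissue was micro-dissected at e10.5, in days after conception, and pieces of 5 hearts were pooled for each sample. The 4 control pools were wild type and the 4 mutant pools carried a hypomorphic Tbx3 genotype whose allele the labels do not describe further, and both came from a background of 50% Sv129 and 50% C57Bl6. Each of 4 two-colour arrays held 1 control pool in the green channel (Cy3) and 1 mutant pool in the red channel (Cy5). Because the dyes were never swapped, a dye effect of a given probe and the effect of the genotype cannot be told apart. Ratios below are log2 of the mutant over the control signal after loess normalization, levels are log2 normalized signal in 1 channel, and the spread is the SD over arrays. The labels call the 4 pairs of pools biological replicates, and the small number of arrays limits the precision of every mean.

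Tbx3 itself was lower on every array, at -1.35, -1.40, -1.43 and -1.21 on arrays 1 to 4 (mean -1.35 ± 0.10 SD, n = 4, adjusted p = 0.0454 by limma over all genes), and without array 2 the mean was -1.33 ± 0.11 (SD, n = 3, adjusted p = 0.0298). The size of the Tbx3 ratio barely moved without array 1, 3 or 4 (-1.39 to -1.32), but its call over 4 arrays was lost without any of them (adjusted p = 0.346 to 0.602). The call was also lost when all Tbx3 probes were averaged (mean -0.74, adjusted p = 0.120). A dimmer Tbx3 probe, above background in 3 control pools and 1 mutant pool, gave ratios between -0.23 and 0.027. Array 2 stood apart from the rest. Over the genes past the filter, its ratios correlated at 0.07, -0.06 and -0.02 with those of arrays 1, 3 and 4. Arrays 3 and 4 correlated with each other at 0.66, and array 1 correlated with them less, at 0.25 and 0.35. In control pool 2 the level of Col1a1, a fibrillar collagen gene, was 18.13 against 14.88 to 15.25 in the other control pools, and that of Hoxa11, a homeobox gene of uterine stroma, was 13.09 against 6.08 to 7.01. Of 12 uterine markers, control pool 2 had the highest control level for 10 and the lowest for 2, the smooth muscle genes Actg2 and Cnn1. The summed signal of 5 leukocyte markers, all above background in every pool, was 42926 in control pool 2 against 9252 to 12262 in the other control pools and 7479 to 10539 in the mutant pools. The summed signal of the 12 uterine markers was 176104 in control pool 2 against 108676 to 110719 in the other control pools. In the mutant pools it was 119907 to 144390. Prl3c1, of the same list, was above background in 0 control pools and 1 mutant pool. Prl8a2 was highest in mutant pool 3, at 11.27 against 10.25 in control pool 2, and Hoxa11 had a ratio of 1.29 on array 3. The part of such RNA in the ratios of array 2, or of the other arrays, was not tested. Each of the 10 genes is given with and without array 2.

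The oligonucleotides behind the results are shown because both second probes of Id1 and Id2 bear on how those genes are read. The first 30 bases of each are given, 5′ to 3′, and in the pair for Id1 the capitals mark bases that both oligonucleotides share.
Bmp2: aagagacatgtgaggattagcaggtctttg
Msx2: tttgttatttaggtgagaggcactaagacc
Id1, brighter oligonucleotide: gaggaaatatTTTGTATTGTATATTACAAT
Id1, other oligonucleotide: TTTGTATTGTATATTACAATGATCACTGGC
Id2, second oligonucleotide: caggcatctgaattcccttctgagcttatg
Id2, brighter oligonucleotide: tgagtgaaccttgtggactctttaattaga
Id3: tccgcatctcccgatccagacagctgagct
Smad6: acagtgtgcgcatcagcttcgccaagggct
The Id1 oligonucleotides overlap by 50 of 60 bases and are nearly one measurement, whereas those of Id2 share no bases and are separate readings of its transcript. In the coordinates that the files give for mouse build mm7, the Bmp2 oligonucleotide lies at chr2:133302098-133302157, that of Msx2 at chr13:52503611-52503670, that of Id3 at chr4:135522597-135522771 and that of Smad6 at chr9:63982002-63982061. The span for Id3 is 175 bases for a 60-base oligonucleotide. Whether they lie in exons or UTRs is not stated, for want of a matching annotation here.

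Over all 4 arrays, 0 of the 10 genes passed the threshold of an adjusted p of 0.05, against 0.00524% of all genes tested, which is Tbx3 alone. At an unadjusted p under 0.05, Id1 passed by limma, 1 of 10 against 14.6% of all genes. Without array 2, Msx2 fell, 1 of 10 against 1.01% of all genes called in either direction and 0.33% called lower. Bmp2, Id2, Id3 and Smad6 missed that threshold, but together with Msx2 they had adjusted p-values under 0.1 with lower means, 5 of 10 against 3.68% of all genes (8.11% in either direction). The 10 genes and the array to leave out were chosen with earlier results of these data known. The counts set beside all genes, here and below, are therefore not tests. The median ratio of the 10 genes was -0.18 over 4 arrays and -0.25 without array 2, beside 0.0012 and 0.0097 for all genes. With median centring only, in place of loess, it was 0.29 and 0.18. All genes then had medians of 0.23 and 0.20, and genes as bright as the 10 had 0.40 and 0.39. In bulk tissue, fewer cells of a type and less RNA per cell cannot be told apart.

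**Figure D1:**
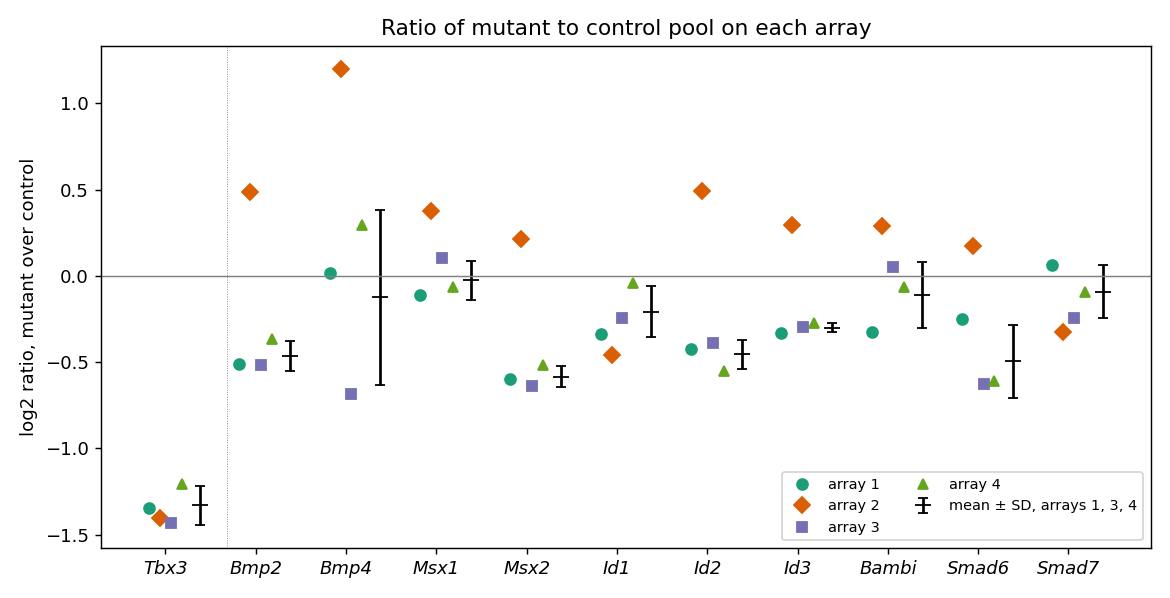
Log2 ratio of mutant over control signal (vertical axis) for each of the 10 genes and Tbx3, with 1 point per array and the mean and SD without array 2. Bmp2, Msx2, Id2, Id3 and Smad6 lie below 0 on arrays 1, 3 and 4 and above 0 on array 2, under loess normalization; with median centring only, the means without array 2 of Id2 and Id3 are above 0.

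Of the ligands, Bmp2 had lower levels in mutant pools on 3 of 4 arrays and Bmp4 had no common direction. The Bmp2 level was 11.09, 10.94, 11.41 and 11.52 in control pools 1 to 4 and 10.58, 11.42, 10.89 and 11.15 in mutant pools 1 to 4. The groups overlapped, even without array 2, since mutant pool 4 lay above control pool 1, and the difference appears within each of arrays 1, 3 and 4. Its ratios were -0.51, 0.48, -0.52 and -0.37, with a mean of -0.23 ± 0.48 (SD, n = 4, adjusted p = 0.626). Without array 2 the mean was -0.46 ± 0.085 (SD, n = 3, adjusted p = 0.0565), a level 0.725 times that of the controls, with a 95% interval of -0.63 to -0.29. Arrays 1, 3 and 4 thus lay close together and array 2 alone had the opposite sign. On 2 arrays, with array 2 and another left out, the adjusted p was 0.0367 without array 1, 0.277 without array 3 and 0.306 without array 4. With median centring only, the mean was 0.11 over 4 arrays and -0.16 without array 2.

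Bmp4, a ligand of the same subfamily made chiefly in the outflow tract and neighbouring mesoderm, had ratios of 0.017, 1.20, -0.69 and 0.29. Its level was 11.57, 10.62, 11.52 and 11.44 in the control pools and 11.59, 11.82, 10.84 and 11.73 in the mutant pools. Control pool 2 and mutant pool 3 were both low, and the other 6 pools lay between 11.44 and 11.82. The mean ratio was 0.21 ± 0.78 (SD, n = 4, adjusted p = 0.788), and without array 2 it was -0.13 ± 0.50 (SD, n = 3, adjusted p = 0.743) with a 95% interval of -0.62 to 0.37. That interval holds a fall as large as that of the Bmp2 mean as well as a rise. With median centring only, the means were 0.56 and 0.19.

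The 2 Msx genes differed in their ratios. The level of Msx2 was 11.41, 11.23, 11.66 and 11.64 in the control pools and 10.81, 11.44, 11.02 and 11.13 in the mutant pools. Mutant pools 1, 3 and 4 all lay below every control pool, and mutant pool 2 lay above control pools 1 and 2. The ratios were -0.60, 0.21, -0.64 and -0.51, with a mean of -0.38 ± 0.40 (SD, n = 4, adjusted p = 0.357) and, without array 2, of -0.58 ± 0.063 (SD, n = 3, adjusted p = 0.0429). Without array 2 its mutant level was 0.668 times the control level, and by p-value it ranked 105 of the 19091 genes. Over 11 other processing choices without array 2 the Msx2 ratio stayed between -0.63 and -0.27 with an adjusted p of 0.0155 to 0.141, past the threshold in 8 of them. Leaving out array 3 or array 4 as well ended the call (adjusted p = 0.224 and 0.286). Over all 4 arrays, median centring only gave a mean of -0.039 (adjusted p = 0.871).

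Msx1 levels lay between 11.24 and 11.45 in the control pools and between 11.32 and 11.61 in the mutant pools, and the groups overlapped. Its ratios of -0.11, 0.38, 0.10 and -0.066 gave a mean of 0.076 ± 0.22 (SD, n = 4, adjusted p = 0.766), and without array 2 of -0.024 ± 0.11 (SD, n = 3, adjusted p = 0.870), with a 95% interval of -0.21 to 0.16. The interval lies outside that of Msx2, which ran from -0.74 to -0.42, though the difference between both genes was not itself tested. With median centring only, the Msx1 mean was 0.43 over 4 arrays (adjusted p = 0.0353), which is 0.026 relative to genes as bright as the 10. A dimmer Msx1 probe on 10 spots gave ratios of -0.047, 0.047, 0.0025 and -0.024.

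Among the Id genes, Id1 was the 1 gene of the 10 that was lower on all 4 arrays, which 12.6% of all genes were. Its level was 14.29, 14.47, 14.44 and 14.27 in the control pools and 13.95, 14.01, 14.20 and 14.23 in the mutant pools. Every mutant pool lay below every control pool, narrowly on array 4 (14.23 against 14.27). The share of all genes with such a gap over 4 arrays was not counted, and without array 2 it was 13.3%. The ratios were -0.34, -0.46, -0.24 and -0.044, the last of them near 0, and the mean of -0.27 ± 0.18 (SD, n = 4) did not pass (unadjusted p = 0.022, adjusted p = 0.266). Without array 2 the mean was -0.21 ± 0.15 (SD, n = 3, adjusted p = 0.211). The other Id1 oligonucleotide, which shares most of its bases, gave -0.24, -0.44, -0.20 and -0.023. With median centring only, the Id1 mean was 0.27 over 4 arrays, so its direction depends on that choice.

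Id2 had the highest signal of the 10, with levels of 15.26, 14.94, 15.35 and 15.45 in the control pools and 14.83, 15.43, 14.95 and 14.90 in the mutant pools. Mutant pool 2 was the high one and control pool 2 the low one; in the other 3 pairs every mutant pool lay below every control pool. The ratios were -0.43, 0.49, -0.39 and -0.55, with a mean of -0.22 ± 0.48 (SD, n = 4, adjusted p = 0.639) and, without array 2, of -0.46 ± 0.084 (SD, n = 3, adjusted p = 0.0571). The separate second oligonucleotide gave -0.47, 0.82, -0.38 and -0.49, the same signs in the same arrays, with -0.45 ± 0.062 (SD, n = 3) without array 2. With array 2 and another left out (n = 2), the adjusted p of Id2 was 0.0348 without array 1, 0.243 without array 3 and 0.359 without array 4. Under median centring only, the mean of Id2 without array 2 was 0.16.

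Id3 levels were 13.46, 13.41, 13.61 and 13.67 in the control pools and 13.13, 13.71, 13.32 and 13.39 in the mutant pools. Its ratios of -0.33, 0.30, -0.30 and -0.27 gave -0.15 ± 0.30 (SD, n = 4, adjusted p = 0.629). Without array 2 the mean was -0.30 ± 0.028 (SD, n = 3, adjusted p = 0.0795), a level 0.813 times that of the controls under loess but a mean of 0.14 under median centring only. Mutant pools 1, 3 and 4 lay below every control pool, and its ratios were closer to 0 than those of Id2 on each of those arrays.

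Of the feedback inhibitors, Smad6 was lower on arrays 1, 3 and 4, Smad7 was lower on arrays 2, 3 and 4, and Bambi had a mean near 0. Smad6 levels were 12.78, 12.76, 13.04 and 13.07 in the control pools and 12.53, 12.94, 12.42 and 12.47 in the mutant pools. Mutant pool 2 alone lay among the control pools. The Smad6 ratios were -0.25, 0.17, -0.62 and -0.61, with a mean of -0.33 ± 0.37 (SD, n = 4, adjusted p = 0.393) and, without array 2, of -0.49 ± 0.21 (SD, n = 3, adjusted p = 0.0780). Array 1 showed the smallest of the 3 lower ratios, and on 2 arrays the adjusted p was 0.0221 without array 1, 0.315 without array 3 and 0.402 without array 4. With median centring only, its mean was 0.084 over 4 arrays and -0.11 without array 2.

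Smad7 had ratios of 0.066, -0.32, -0.24 and -0.096, the 1 case besides Id1 in which array 2 was below 0. Its mean was -0.15 ± 0.17 (SD, n = 4, adjusted p = 0.483), or -0.091 ± 0.16 without array 2 (SD, n = 3, adjusted p = 0.549), with a 95% interval of -0.30 to 0.12. The levels were between 12.22 and 12.40 in the control pools and between 12.07 and 12.45 in the mutant pools, and mutant pool 1 was the highest of all 8. Bambi, with levels between 14.52 and 14.79 in the control pools and between 14.42 and 14.81 in the mutant pools, had ratios of -0.32, 0.29, 0.052 and -0.063. Its mean was -0.011 ± 0.26 (SD, n = 4, adjusted p = 0.975) and -0.11 ± 0.19 without array 2 (SD, n = 3, adjusted p = 0.516), with a 95% interval of -0.34 to 0.12. A dimmer Bambi probe gave ratios from -0.17 to 0.036. Under median centring only, Bambi rose, with a mean of 0.58 over 4 arrays (adjusted p = 0.0140) and 0.46 without array 2 (adjusted p = 0.0133), and the mean of Smad7 was 0.24 over 4 arrays.

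**Figure D2:**
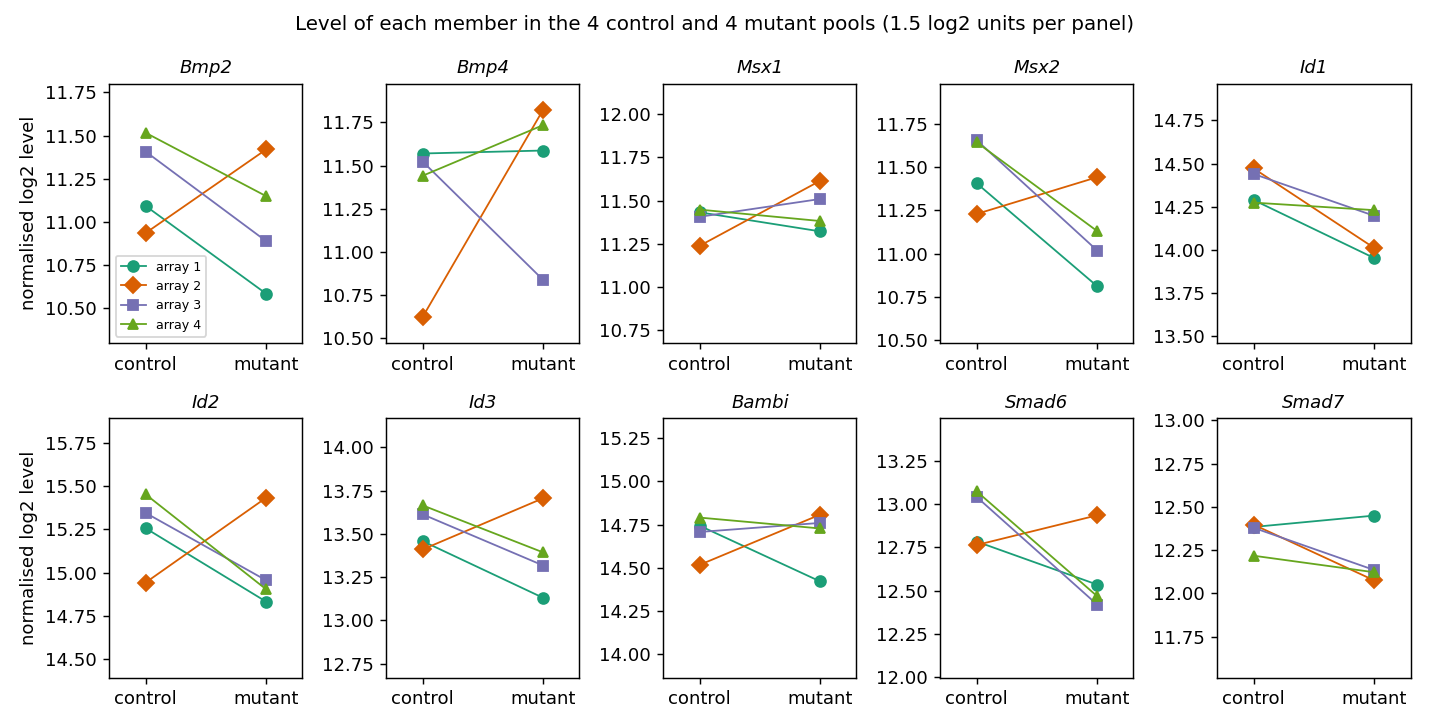
Log2 normalized signal (vertical axis) of the 10 genes in the 4 control and 4 mutant pools (horizontal axis), with a point for each pool and a line joining the pools of 1 array. Without array 2, every mutant pool lies below every control pool for Msx2, Id1, Id2, Id3 and Smad6, as it does for 13.3% of all genes, and the signal of different genes is not a comparison of their transcript amounts.

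The sign of array 2 was shared. Of the 10 genes, 6 were lower on each of arrays 1, 3 and 4 (22.9% of all genes were), and 5 of these, Bmp2, Msx2, Id2, Id3 and Smad6, were higher on array 2 (10.4% of all genes were). For 8 of the 10, all but Id1 and Smad7, control pool 2 had the lowest of the 4 control levels and mutant pool 2 the highest of the 4 mutant levels, which held for 10.1% of all genes. The deviations lay in both channels: for Bmp2, control pool 2 was 0.40 below the mean of the other control pools and mutant pool 2 was 0.55 above that of the other mutant pools. For Id2 the values were 0.41 below and 0.54 above, and for Bmp4 0.89 below and 0.44 above. Both channels of an array share 1 hybridization and 1 normalization, and the part of either in this deviation was not tested.

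Repeat spots gave the spread within an array for the genes printed on several. Bmp2, Bmp4, Msx2 and Bambi were each printed on 10 spots, and the SD of the ratio over spots of 1 array was 0.019 to 0.030, against 0.053 to 0.075 for the dimmer Msx1 probe. All 10 Bmp2 spots lay between 0.44 and 0.52 on array 2, and on arrays 1, 3 and 4 they lay between -0.59 and -0.33. The Msx2 spots ran from 0.18 to 0.25 on array 2, and elsewhere from -0.67 to -0.48. The repeat spots are copies of 1 measurement of a pair of pools, and Id2, Id3 and Smad6 have none by which to read their spread within an array.

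**Figure D3:**
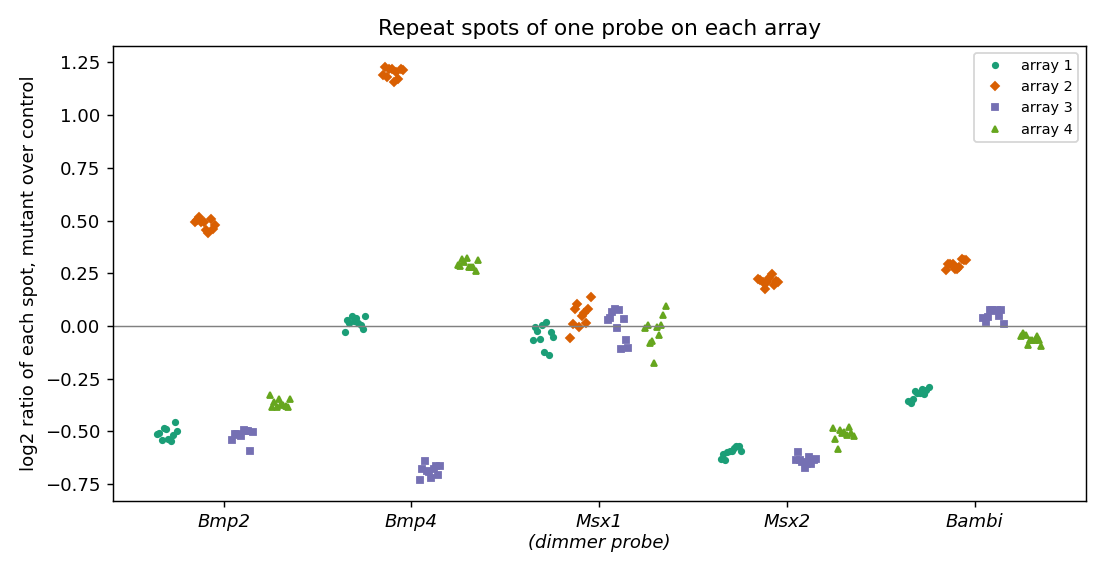
Log2 ratio of each repeat spot (vertical axis) on arrays 1 to 4 for the members printed on 10 spots. Spots of 1 array lie close together, with SDs of 0.019 to 0.030 for Bmp2, Bmp4, Msx2 and Bambi and 0.053 to 0.075 for the dimmer Msx1 probe, while those of Bmp4 run from -0.73 on array 3 to 1.23 on array 2.

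The rest of the pathway was read from 6 lists of 81 genes, of which 74 were tested. Over 4 arrays 0 of the 74 passed, and without array 2 there were 2 that fell and 0 that rose, beside 1.01% of all genes. Both that fell encode secreted proteins that bind or modify BMP ligands. Bmper, a chordin-like modulator of BMP availability, had ratios of -0.64, -0.16, -0.51 and -0.54, with -0.46 ± 0.21 (SD, n = 4, adjusted p = 0.160) and, without array 2, -0.56 ± 0.07 (SD, n = 3, adjusted p = 0.0450). Fstl1, a follistatin-like secreted glycoprotein, had ratios of -0.46, -0.45, -0.48 and -0.56, with -0.49 ± 0.05 (SD, n = 4, adjusted p = 0.118) and, without array 2, -0.50 ± 0.05 (SD, n = 3, adjusted p = 0.0483). With median centring only, the mean of Fstl1 without array 2 was 0.13 and that of Bmper was -0.22. Both had a ratio below 0 on array 2 as well, as did Id1 and Smad7 of the 10 genes.

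In the list of other ligands, 0 of 14 passed either way and the median ratio was -0.05 over 4 arrays and 0.01 without array 2. Its brightest genes were Bmp7, at 0.14 ± 0.08 (SD, n = 4) and 0.16 ± 0.10 without array 2, and the procollagen protease Bmp1, at -0.16 ± 0.17 (SD, n = 4) and -0.12 ± 0.18 without array 2. Among 11 receptor genes, again with 0 called, the median was -0.08 and -0.06 without array 2. Bmpr1a, the type I receptor that canal myocardium needs for BMP signalling, had ratios of 0.24, -0.23, 0.57 and 0.62, opposite in sign to those of Msx2 on every array (mean 0.30 ± 0.39 SD, n = 4, adjusted p = 0.443). Without array 2 its mean was 0.48 ± 0.21 (SD, n = 3, adjusted p = 0.0795), and with median centring only its means were 0.71 over 4 arrays and 0.87 without array 2. The type II receptor Bmpr2 had a mean of -0.05 ± 0.20 (SD, n = 4), or -0.033 ± 0.24 without array 2.

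The 7 Smads and partners had a median of -0.14, or -0.12 without array 2, with 0 called, and their brightest genes were Smad4 at 0.18 ± 0.17 and Smad5 at -0.14 ± 0.10 (SD, n = 4), or 0.24 ± 0.16 and -0.12 ± 0.11 without array 2. The 14 secreted inhibitors, which hold Bmper and Fstl1, had a median of -0.0068, or 0.12 without array 2, so their median and their called genes differ in sign. The 11 intracellular inhibitors had a median of -0.05, or 0.0056 without array 2, and the 17 other BMP-responsive genes one of -0.09, or -0.13 without array 2, with 0 called in each. Among the latter, Nkx2-5, a cardiac homeobox factor, had a mean of -0.08 ± 0.09, and Cdkn1c, a cyclin-dependent kinase inhibitor, one of 0.30 ± 0.24 (SD, n = 4), or -0.13 ± 0.037 and 0.25 ± 0.27 without array 2. Of the 74 genes, 24 were lower on each of arrays 1, 3 and 4, beside 22.9% of all genes.

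**Figure D4:**
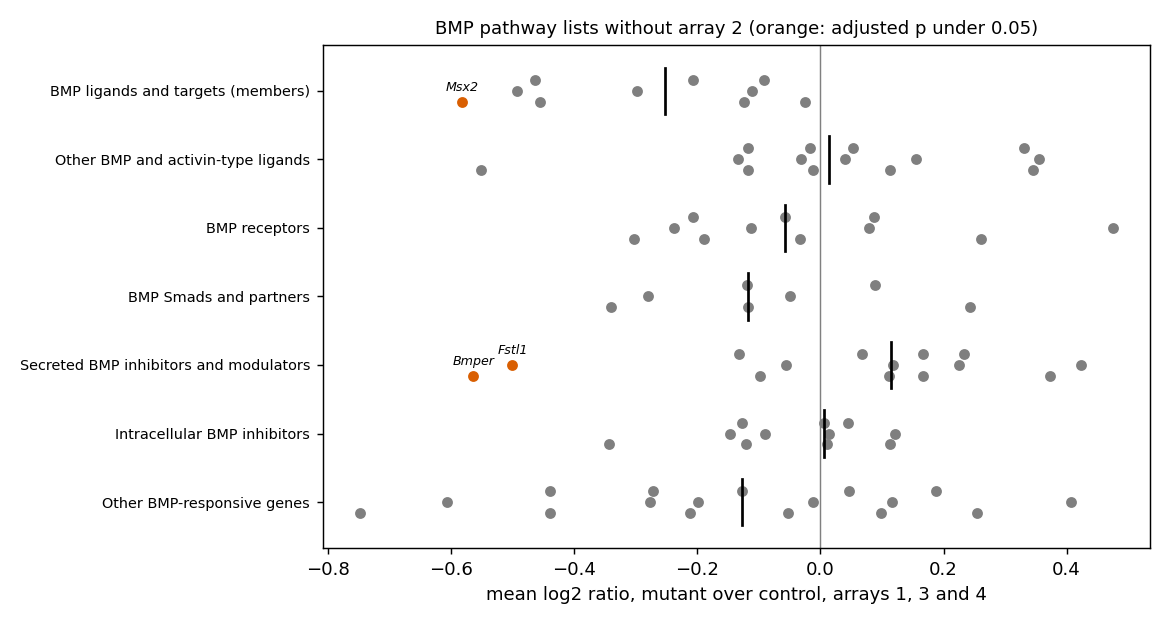
Mean log2 ratio without array 2 (horizontal axis) of each tested gene in the 6 pathway lists and of the 10 genes, with a bar at the median of each list and the genes past the threshold in orange. The medians of the 6 lists lie between -0.13 and 0.12, and that of the 10 genes is -0.25.

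Markers of several cell types also differed between the pools. Markers of cushion mesenchyme, 6 of 6 above background in every pool, had a median ratio of -0.29, -0.39, -0.33 and -0.56 on arrays 1 to 4, and their summed signal was 53116 to 85320 in control pools and 42728 to 52178 in mutant pools. The 6 canal and node genes, also above background in every pool, had medians of -0.77, -0.14, -0.66 and -0.37, with a summed signal of 22803 to 25437 in control pools and 11426 to 14720 in mutant pools. That list holds Tbx3 itself and Bmp2, and without these its 4 other genes had medians of -0.56, -0.14, -0.42 and -0.12 and summed signals that overlapped, 3954 to 4411 in control and 3339 to 4636 in mutant pools. It also holds Tbx2, a T-box repressor that BMP signalling induces, whose ratios were 0.02, 0.55, 0.15 and 0.40. Markers of general myocardium had medians of 0.17, 0.79, 0.64 and 0.30, those of endocardium -0.07, 0.14, 0.13 and 0.02, and those of red cells 1.97, 0.99, -0.22 and 0.11. The red cell genes were summed to 256992 to 664566 in control pools and 703320 to 1057990 in mutant pools. Markers of hypoxia and glycolysis, 8 of 8 above background in every pool, had medians of 1.10, 0.50, 1.20 and 1.04, and their summed signal was 384052 to 461004 in control pools and 758579 to 904403 in mutant pools. Chamber myocardium markers had medians of -0.02, 0.13, 0.85 and 0.66, and epicardial ones -0.10, 0.08, 0.48 and 0.63. The part of any of these in the ratios of the 10 genes was not tested.

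**Figure D5:**
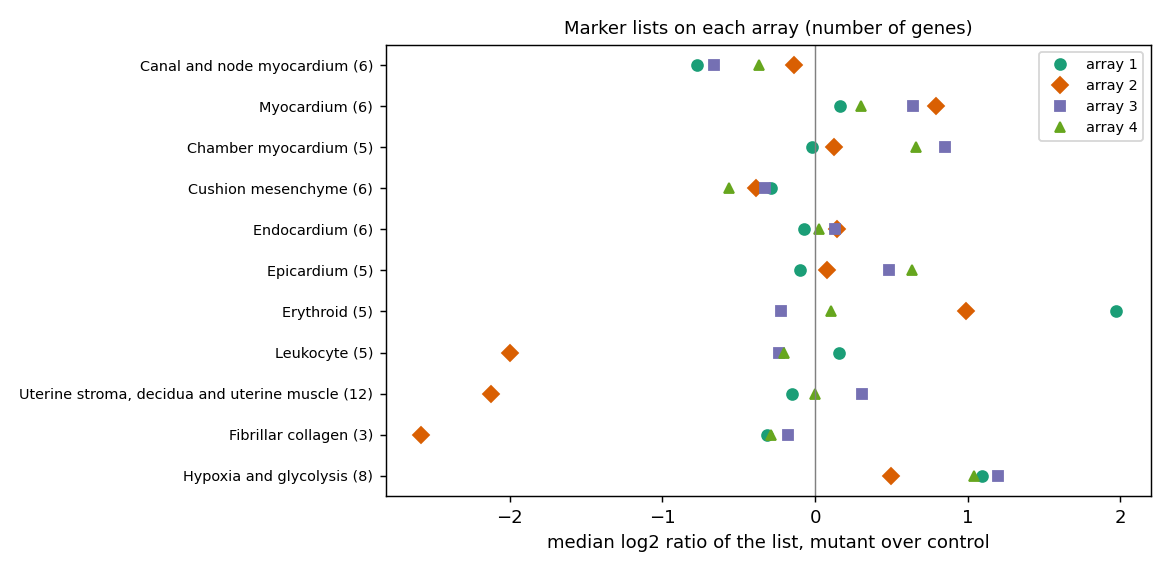
Median log2 ratio (horizontal axis) of each marker list (vertical axis, with the number of genes), with a point for each of arrays 1 to 4. Canal, cushion and fibrillar collagen lists lie below 0 on all 4 arrays, the collagen list at -2.58 on array 2. The uterine list is at -2.12 on array 2 and between -0.15 and 0.31 elsewhere.

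Promoter sequence was looked at for 6 of the 10 genes. Msx2, Id2 and Id3, whose windows are printed, are among the 5 genes that were higher on array 2 and lower on every other array. Smad6 is also among these 5 and has a window, which is not printed. RefSeq windows of 250 bases upstream of the start were given for 6 of the 10 genes (assembly GRCm38.p6), and 3 are printed, 5′ to 3′ on the strand of the gene, with motif matches in capitals.
Msx2, chr13:53472781-53473030, minus strand: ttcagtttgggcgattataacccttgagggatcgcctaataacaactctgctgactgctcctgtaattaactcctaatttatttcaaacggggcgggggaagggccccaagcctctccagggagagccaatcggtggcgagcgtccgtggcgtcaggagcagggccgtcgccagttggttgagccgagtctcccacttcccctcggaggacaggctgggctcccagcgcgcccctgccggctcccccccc
Id2, chr12:25096093-25096342, minus strand: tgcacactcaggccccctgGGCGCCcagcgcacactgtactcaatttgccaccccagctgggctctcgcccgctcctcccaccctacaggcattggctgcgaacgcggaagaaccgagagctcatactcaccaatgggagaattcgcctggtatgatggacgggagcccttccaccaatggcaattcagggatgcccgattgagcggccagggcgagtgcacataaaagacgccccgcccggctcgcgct
Id3, chr4:136143572-136143821, plus strand: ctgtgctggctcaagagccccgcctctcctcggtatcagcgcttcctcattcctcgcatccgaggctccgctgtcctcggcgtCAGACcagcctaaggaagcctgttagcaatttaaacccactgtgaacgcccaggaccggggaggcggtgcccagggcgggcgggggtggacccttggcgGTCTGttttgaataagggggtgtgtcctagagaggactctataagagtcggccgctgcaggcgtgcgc
Searched on both strands were the GC-rich Smad1 and Smad5 core GGCGCC and the Smad4 element GTCTG, which do not overlap. The core stood in the Id2 window, 231 to 226 bases upstream, and in 9.7% of 32536 windows of that length. GTCTG stood in the Id3 window on the minus strand 167 to 163 bases upstream and on the plus strand 68 to 64 bases upstream, and in 42.2% of all windows. Neither motif was found in the windows of Bmp4, Msx1, Msx2 or Smad6, which says only that these letters are not in those 250 bases. The windows of the 6 genes had at least 61.6% G and C, beside a median of 52.4% over all windows.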

How the data were processed

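Per the submitters' processing notes, the 4 two-colour arrays were read with Agilent Feature Extraction 9.5.1, and its output is what the authors deposited. Per the file headers it gives an intensity per spot and channel (mean pixels before subtraction) and a local background. It also gives a log10 ratio of red over green per spot, which the deposited series table repeats. Intensity was corrected with normexp (offset 50) and loess within each array in limma 3.58.1 (R 4.3.3). Non-uniform spots were dropped and spots of a probe averaged. Kept were 28794 of 41174 probes, those well above background in a channel on 3 arrays or more. The brightest probe stood for each of 19091 genes, the ratio was tested against 0 with limma's moderated test, and p-values were adjusted by Benjamini-Hochberg over all genes, with a threshold of 0.05. Channel levels were scaled between arrays by Aquantile. The fit was tested on simulated data. All arrays lay on 1 slide and in 1 scan.

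The 10 genes, the pathway and marker lists and array 2 as the array to leave out were chosen with earlier results of these data known. Named are the 10 genes, Tbx3 and, in each pathway list, every gene past the threshold and otherwise the 2 brightest; marker genes were named after their values were seen. Alternatives covered background, normalization, filter, choice of probe, array weights and leaving out each array. Without array 2 they were added after seeing the data.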

Additional observations from a re-analysis of the deposited data

Results flagged for a closer look

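In 9 of 42 sets of 4 values, the highest or lowest value lay farther from the rest than Dixon's 95% limit. Chance does this in about 1 set of 20 where sets are independent. Here the ratios and levels of a gene share values, so the count is not a test. For 5 of the 9 it was the log2 ratio on array 2: 0.48 for Bmp2, 0.21 for Msx2, 0.49 for Id2, 0.30 for Id3 and 0.54 for Fkbp1a, an immunophilin that binds type I receptors. The level of Bmp4 in control pool 2, 10.6, was low among the control pools. Smad7 was low in control pool 4 and high in mutant pool 1, with levels of 12.2 and 12.4. The ratio of Smad5 on array 3, 0.0090, stood above those of the other arrays.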

How the results depend on the processing

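Of the results for single genes and for lists, 168 were counted as unchanged under the alternatives chosen first. A further 13 turned direction, 4 became called, 8 lost a call and 2 moved. Unchanged meant the same direction and side of the threshold for a single gene, whereas list medians near 0 could turn sign. The median of the other ligands was 0.014 without array 2, and that of the secreted inhibitors was 0.012 without array 1. All 8 losses are of Tbx3 over 4 arrays: without array 1, 3 or 4, and with every probe tested (adjusted p = 0.0504), the scanner's log ratio (0.0547), the mean over probes (0.120), no background correction (0.0538) and offset 10 (0.0775). Median centring in place of loess accounts for most turns: it shifts the median of all genes by 0.23, and by 0.20 without array 2, and that of genes as bright as the 10 by 0.40 and 0.39. Under it the means over 4 arrays were 0.58 for Bambi (adjusted p = 0.0140), 0.11 for Bmp2, 0.27 for Id1, 0.42 for Id2, 0.31 for Id3, 0.084 for Smad6, 0.24 for Smad7, 0.43 for Msx1 (adjusted p = 0.0353), 0.56 for Bmp4 and -0.039 for Msx2. Without array 2 they were 0.46 for Bambi, 0.19 for Bmp4, 0.31 for Id1, 0.16 for Id2, 0.14 for Id3, 0.29 for Msx1 and 0.27 for Smad7, while Bmp2 (-0.16), Msx2 (-0.27, adjusted p = 0.0285) and Smad6 (-0.11) stayed lower. Relative to genes of their brightness, these means without array 2 were -0.55 for Bmp2, -0.66 for Msx2, -0.49 for Smad6, -0.22 for Id2, -0.24 for Id3, -0.07 for Id1, -0.19 for Bmp4, -0.09 for Msx1, -0.12 for Smad7 and 0.07 for Bambi; over 4 arrays they ran from -0.44 for Msx2 to 0.17 for Bambi. Values near 0 turned elsewhere: Bambi was 0.036 with a running median and -0.11 to 0.094 leaving out 1 array (0.094 without array 1, 0.0069 without array 4). Bmp4 was -0.083 with array weights and -0.13 (without array 2) to 0.50 (without array 3) leaving out 1 array, and, with array 2 already out, -0.33 (without array 4) to 0.16 (without array 3). Msx1 was -0.024 (without array 2) to 0.14 leaving out 1 array and, with array 2 already out, -0.088 to 0.019 (without array 1). The cause was not tested. Over 4 arrays, genes past the threshold numbered 1574 with array weights, 3 with the scanner's log ratio, 7772 with median centring, 0 with every probe tested, with the mean over probes, without background correction and with offset 10, and 0 to 193 leaving out 1 array (193 without array 2). Without array 2 they numbered 2468, 3 and 8450 for the first 3 of these settings, 99 with the mean over probes, 112 without background correction, 414 without a filter, 3 with offset 10, 72 with a running median and 0 to 1926 leaving out another array (1926 without array 1, 0 without array 4). Of the 10 genes over 4 arrays, 2 were called with array weights (Msx2 at -0.53, adjusted p = 0.0326, and Smad6 at -0.52, adjusted p = 0.0376), beside 1574 of all 19091 genes. Median centring called 2, Bambi and Msx1, both higher, beside 7772 of all genes, of which 570 were lower. Leaving out an array called 0 to 1, beside 0 to 193 of all genes. Without array 2 the count was 5 with array weights, beside 2468 of all genes, and 4 with median centring, beside 8450. It was 3 without a filter, beside 414, and 0 with the scanner's log ratio, with offset 10 and with a running median. Leaving out another array as well gave 0 to 4 (4 without array 1, beside 1926 of all genes, and 0 without array 3 or array 4). Among the 4 called with median centring, only Msx2 was lower. Bambi (adjusted p = 0.0133), Id1 (adjusted p = 0.0382) and Msx1 (adjusted p = 0.0272) were higher. Called genes were lower in 32.6% of cases without array 2, in 8.46% with median centring, 45.1% with array weights and 0% with the scanner's log ratio and with offset 10. The test is itself paired, since each ratio sets the control and mutant pool of 1 array against each other, and no further replicate block could be fitted to 1 group of ratios. Signal over background did not limit the 10 genes, all of which were well above it in every pool.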
